A study of Mus musculus with 28 samples.

Results

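Obeticholic acid (OCA) was compared with its vehicle in the livers of mice with diet-induced NASH (nonalcoholic steatohepatitis), in which a fatty liver becomes inflamed and scarred. The comparison used 8 of the 28 animals of the study, 4 given OCA and 4 given vehicle, and covered every gene of the authors' deposited table of these groups. All animals were male C57BL/6 mice, about 6 weeks old at the start. The OCA and vehicle groups spent 26 weeks on a diet that held 2% cholesterol and 22% fructose and took 40% of its calories from fat, after which OCA was given by mouth once a day at 25 mg/kg for 4 weeks. A lean control group of 4 ate a diet with 10% of its calories from fat and neither fructose nor cholesterol. The study also gave tropifexor, at a low, a mid and a high dose, to groups of 4 on the NASH diet with a vehicle group of their own. The treatment field of the OCA vehicle samples lists the drug while their titles name vehicle, and the titles were followed. All animals were of 1 sex and 1 strain.

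OCA is a semi-synthetic bile acid that activates FXR (Nr1h4), the nuclear receptor through which cells sense bile acids. In hepatocytes FXR induces SHP (Nr0b2), a corepressor that shuts down the synthesis of new bile acids, and it induces the transporters that move bile acids and phospholipid out of the cell. In the ileum it induces FGF15, a hormone that reaches the liver and also represses bile acid synthesis. Since bile acids are made from cholesterol, FXR activity also touches hepatic cholesterol, triglyceride and glucose handling.

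The authors' deposited tables give 1 FPKM per group (read fragments per unit of transcript length and of library size) and none per animal, so overlap between animals cannot be seen, and library depth is unknown. A gene was called when the authors' Cuffdiff test gave it a q, the p adjusted over the tested genes, under 0.05. Standard errors (SE) are those implied by the deposited statistic and p. The labelled tissue was checked against hepatocyte markers: albumin (Alb) stood at 37120 FPKM with vehicle and 45639 with OCA in the authors' deposited table. None of the 14 tested hepatocyte secretory genes was called, and none of them had an unadjusted p under 0.05. Among the genes that check for blood, pancreas and fat, the pancreatic Cpa1, Pnlip and Try4 were at 0 in both groups of the authors' deposited table.

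Of 15706 tested genes, 634 were called, which is 4.04%, with 284 higher (1.81%) and 350 lower (2.23%) by the authors' deposited table. Most changes were small: the median size of a called change was 0.72 on the log2 scale, and 75 genes rose and 82 fell by at least 1 in the authors' deposited table. The median of all tested genes was -0.01. The counts of each gene list below are to be read beside these shares of all tested genes.

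The ranks of single genes below leave out gene models (names of Gm plus digits or ending in Rik) and genes under 1 FPKM in both groups. Under this rule the largest rise belonged to Ptgds, the lipocalin-type prostaglandin D synthase (chr2:25466709-25470046, GRCm38). It was at 2.96 FPKM with vehicle and 31.6 with OCA in the authors' deposited table, a log2 fold change of 3.42 (SE 0.199). Other large rises joined genes of unlike function. The authors' deposited table gave rises of 2.26 for the lipocalin Obp2a, 2.22 for the membrane protease Tmprss4, 2.07 for the keratin Krt23, 1.76 for the water channel Aqp4 and 1.69 for the interferon-inducible GTPase Gbp11. Chrna4, a subunit of the nicotinic receptor, rose from 1.31 to 5.31 FPKM, and Auts2 from 0.291 to 1.09, in the authors' deposited table.

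The largest fall was that of Serpina1e, a member of the alpha-1-antitrypsin gene cluster (chr12:103946931-103958975), from 364 FPKM with vehicle to 13.1 with OCA in the authors' deposited table, a log2 fold change of -4.80 (SE 0.269). Cfd, complement factor D or adipsin, went from 46.5 to 2.57 FPKM, a fall of 4.18 on the log2 scale (SE 0.191), in the authors' deposited table. Cidea, a lipid droplet fusion protein, fell from 15.7 to 4.15 FPKM, and the chemokine Cxcl13 from 1.18 to 0.236, by the authors' deposited table. The phenobarbital-responsive Cyp2b10 fell from 2.51 to 0.682 FPKM in the authors' deposited table. Each of these genes was at the smallest q of the table (0.00268), apart from Auts2 at 0.00479 in the authors' deposited table. Cish, Onecut1, Tmprss4 and Slc51b share exon bases with another gene, and the sources used here do not state if reads were counted by strand, so their values are uncertain.

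**Figure D1:**
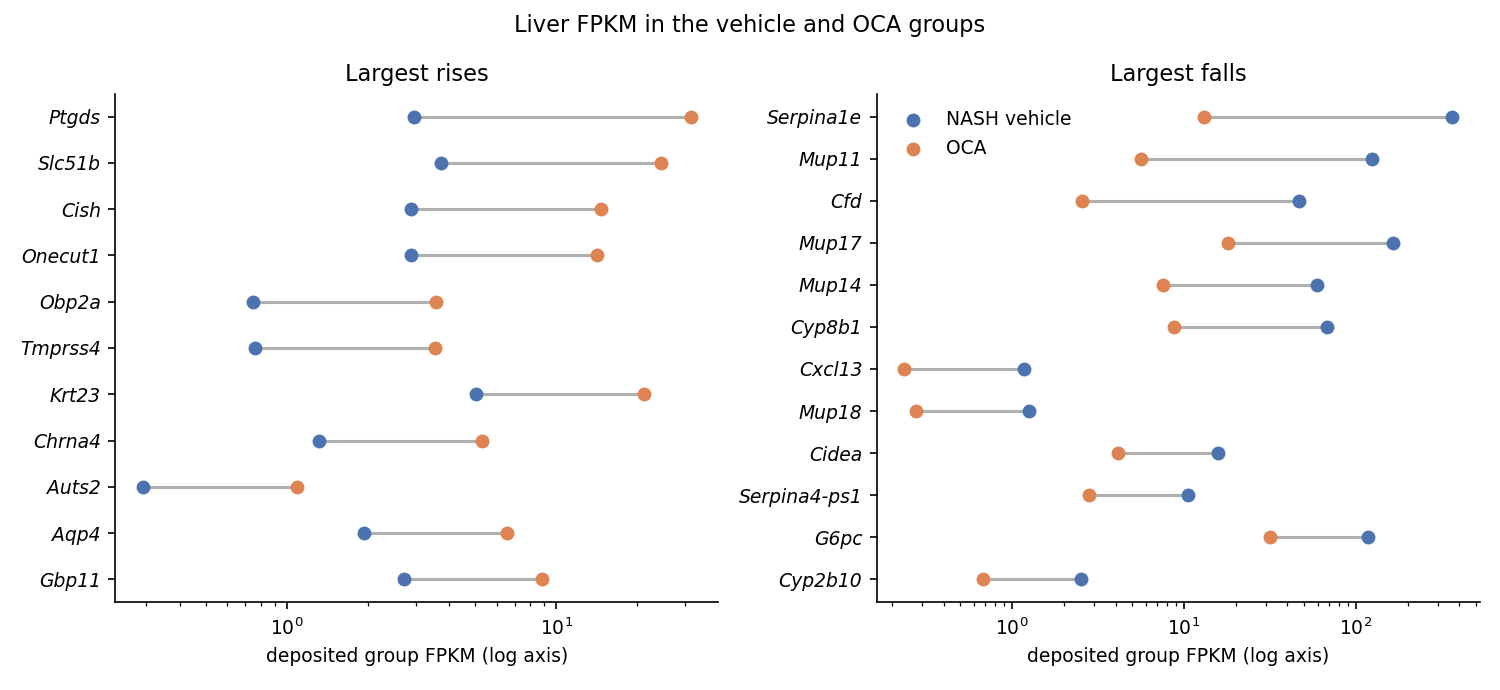
Deposited group FPKM (log axis) of 11 of the 12 largest rises (left) and 12 largest falls (right) among called genes with at least 1 FPKM in a group, gene models left out. Blue points are the NASH vehicle group and orange points the OCA group, 1 value per group of 4 animals. Ptgds goes from 2.96 to 31.6 and Serpina1e from 364 to 13.1.

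The exporter subunit Slc51b and the corepressor Nr0b2 rose with OCA, and 3 enzymes of bile acid synthesis fell. Of 16 tested FXR-induced genes, 3 rose and 0 fell (18.75% called, beside 4.04% of all tested genes). Their median log2 fold change was 0.23 against -0.01 over all tested genes. Slc51b, the beta subunit of the basolateral bile acid exporter (chr9:65398488-65422773), stood at 3.73 FPKM with vehicle and 24.6 with OCA in the authors' deposited table, a rise of 2.72 (SE 0.22). Its partner Slc51a was listed at 0.00525 and 0 FPKM and was not tested in the authors' deposited table. Akr1b7, an aldo-keto reductase, rose from 0.789 to 2.47 FPKM in the authors' deposited table, with an exon overlap that makes it uncertain. Nr0b2 itself (chr4:133553376-133556536) rose from 43.4 to 73.3 FPKM, by 0.75 (SE 0.129), in the authors' deposited table.

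Other targets did not pass. Abcb11, the bile salt export pump, was at 149 and 253 FPKM, with 0.76 (SE 0.296, q = 0.229), in the authors' deposited table. For the phospholipid exporter Abcb4 the deposited change was 0.05 (q = 0.999), and for the receptor gene Nr1h4 -0.16 (q = 0.91), in the authors' deposited table.

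Promoter windows of these exporters are shown because FXR is known to bind, with RXR, an inverted repeat of 2 half-sites separated by 1 base. The sequences are from RefSeq (GRCm38.p6), 250 bases before the start of transcription on the minus strand, and the capitals mark the closest match to AGGTCANTGACCT, a motif that reads the same on both strands, within 300 bases (250 before and 50 after the start).
Abcb11: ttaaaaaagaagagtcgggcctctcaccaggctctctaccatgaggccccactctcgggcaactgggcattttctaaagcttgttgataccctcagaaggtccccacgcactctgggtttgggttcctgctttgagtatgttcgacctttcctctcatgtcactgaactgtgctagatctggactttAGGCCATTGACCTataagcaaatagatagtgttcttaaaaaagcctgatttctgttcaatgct
Slc51b: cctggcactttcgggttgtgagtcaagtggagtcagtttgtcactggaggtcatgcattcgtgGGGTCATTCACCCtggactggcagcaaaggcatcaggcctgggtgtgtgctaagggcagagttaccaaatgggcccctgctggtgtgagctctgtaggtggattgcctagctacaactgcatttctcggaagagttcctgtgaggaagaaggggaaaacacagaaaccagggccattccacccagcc
The Abcb11 window lies at chr2:69342617-69342866 and its match starts 63 bases before the start with 1 mismatch; 0.0822% of 32851 windows held a match with at most 1. The Slc51b window lies at chr9:65422774-65423023 and its match starts 187 bases before the start with 3 mismatches, a degree of match that 11.4% of windows reached. The gene with the closer match was thus the one whose change missed the threshold. Of the 18 FXR-induced genes listed, 14 had a window, 1 with at most 1 mismatch and 5 with at most 3.

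Genes of bile acid synthesis split. Of 18 tested, 3 fell and 2 rose (27.8% called), with a median of -0.21. Cyp8b1, the sterol 12-alpha-hydroxylase that steers synthesis to cholic acid (chr9:121914356-121916305), fell from 67.9 FPKM with vehicle to 8.76 with OCA, by 2.95 on the log2 scale (SE 0.133), in the authors' deposited table. Cyp7a1, the rate-limiting 7-alpha-hydroxylase of the classical pathway, fell from 45.8 to 16.3 FPKM, by 1.49 (SE 0.413), in the authors' deposited table. Cyp7b1, the hydroxylase of the alternative pathway, fell from 50.9 to 25.2 FPKM in the authors' deposited table. The fall of Cyp8b1 left 12.9% of the vehicle level, and that of Cyp7a1 left 35.5%, in the authors' deposited table.

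The other pathway genes moved less. Akr1d1, the delta-4-steroid 5-beta-reductase, rose by 0.76 (62.7 to 106 FPKM), and Cyp39a1, a 24-hydroxycholesterol 7-alpha-hydroxylase, by 0.58, in the authors' deposited table. Cyp27a1, which starts the alternative pathway, had a change of 0.01 (q = 0.999) in the authors' deposited table. Among 13 tested genes of bile acid uptake and export, 1 rose (Slc51b) and 2 fell. Those 2 were Slco1a1, a basolateral uptake carrier (21.0 to 13.1 FPKM), and Abcc4, a basolateral exporter (1.12 to 0.621 FPKM), by the authors' deposited table. Slc10a1, the main sodium-dependent bile acid importer, was at 278 and 266 FPKM and was not called in the authors' deposited table.

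**Figure D2:**
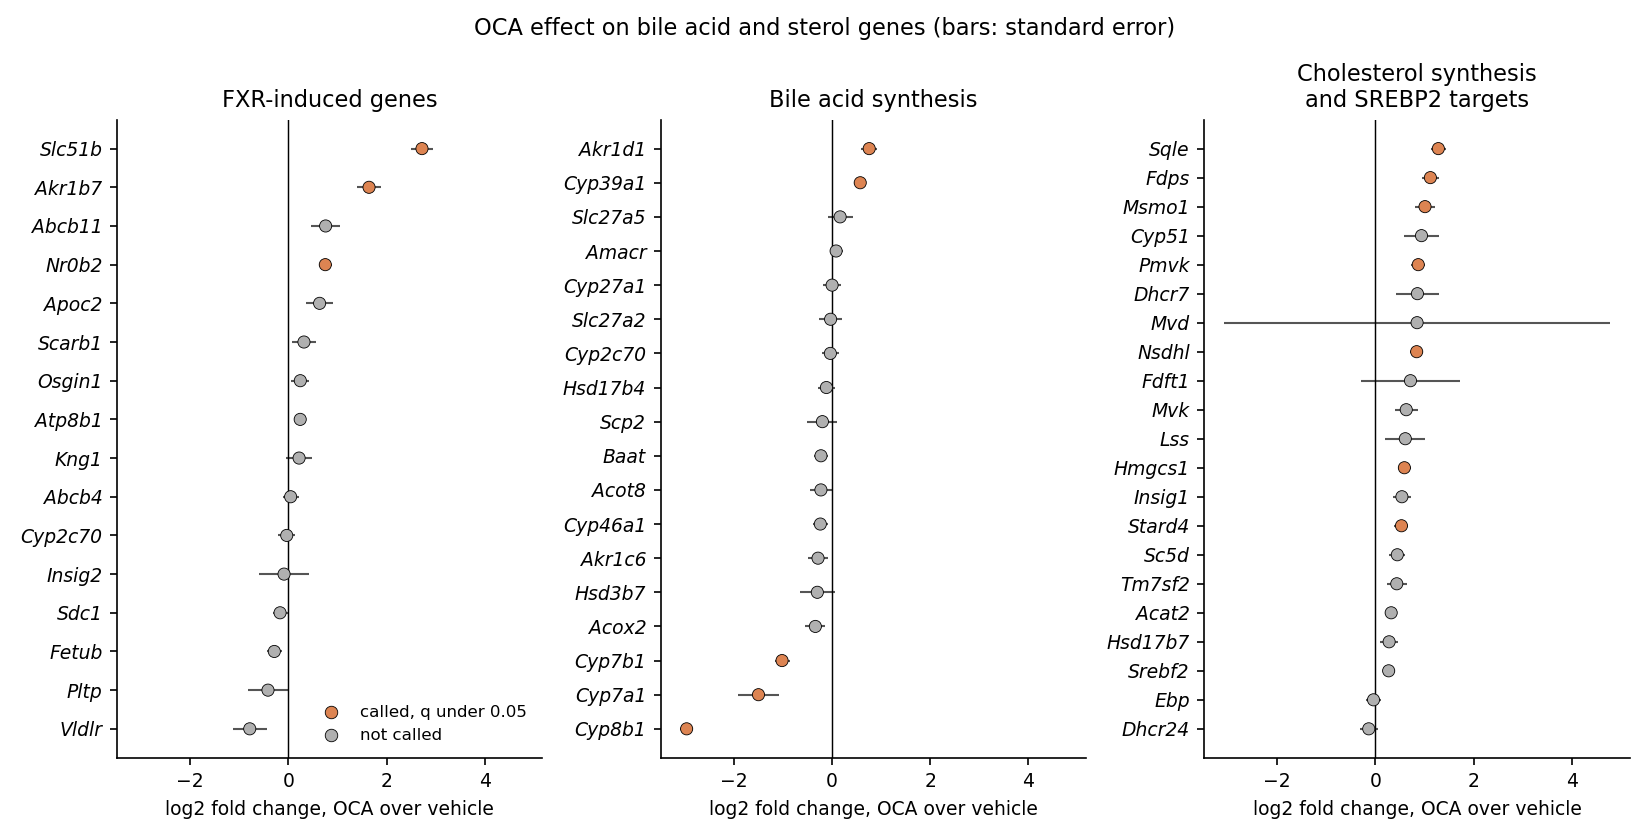
Log2 fold change of OCA over vehicle for tested FXR-induced genes (left), bile acid synthesis genes (middle) and cholesterol synthesis genes (right); bars are 1 standard error and orange points are called at q under 0.05. Slc51b (2.72) and Cyp8b1 (-2.95) lie farthest from 0, and most points of the right panel lie above 0.

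Some genes of cholesterol synthesis and other SREBP2 targets rose, and none fell. SREBP2 is the transcription factor that switches on cholesterol synthesis when sterol in the endoplasmic reticulum is low. Of 24 tested members, 9 rose, 0 fell and 15 were not called (37.5% called, beside 4.04% of all tested genes). A positive change was seen in 22, and the median was 0.62 against -0.01 over all tested genes. Sqle, the squalene epoxidase, rose from 1.38 to 3.34 FPKM, by 1.28 (SE 0.157), in the authors' deposited table. The farnesyl diphosphate synthase Fdps rose from 24.6 to 53.4 FPKM in the authors' deposited table. The steps after squalene took part as well: Msmo1, the sterol C4 oxidase, rose from 25.5 to 51.3 FPKM and Nsdhl, a sterol dehydrogenase, from 8.31 to 14.9, by the authors' deposited table.

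Further calls were Pmvk (0.87), Hmgcs1 (0.59) and Stard4 (0.53) in the authors' deposited table. They encode the phosphomevalonate kinase, the HMG-CoA synthase and a sterol carrier. Srebf2, the gene of SREBP2, had 0.27 (q = 0.34) in the authors' deposited table. Ebp, the most abundant member, was at 175 and 170 FPKM, while the other members summed to 640 with vehicle and 876 with OCA in the authors' deposited table.

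Promoters of 3 of the genes that rose are shown because SREBP2 acts beside NF-Y, which binds CCAAT. The sequences are RefSeq's (GRCm38.p6), 250 bases before the start, and the capitals mark CCAAT on either strand (ATTGG on the strand printed) and the sterol response letters TCACNCCAC.
Hmgcs1: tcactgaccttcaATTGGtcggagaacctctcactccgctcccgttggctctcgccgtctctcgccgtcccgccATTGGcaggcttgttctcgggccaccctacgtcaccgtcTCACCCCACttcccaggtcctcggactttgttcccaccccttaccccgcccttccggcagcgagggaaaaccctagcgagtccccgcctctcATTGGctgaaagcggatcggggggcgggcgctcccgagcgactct
Msmo1: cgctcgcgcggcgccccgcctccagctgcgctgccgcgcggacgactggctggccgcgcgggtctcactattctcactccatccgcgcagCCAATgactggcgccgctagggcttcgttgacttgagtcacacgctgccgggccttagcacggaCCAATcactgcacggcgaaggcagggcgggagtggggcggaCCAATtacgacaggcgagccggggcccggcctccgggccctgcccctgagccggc
Nsdhl: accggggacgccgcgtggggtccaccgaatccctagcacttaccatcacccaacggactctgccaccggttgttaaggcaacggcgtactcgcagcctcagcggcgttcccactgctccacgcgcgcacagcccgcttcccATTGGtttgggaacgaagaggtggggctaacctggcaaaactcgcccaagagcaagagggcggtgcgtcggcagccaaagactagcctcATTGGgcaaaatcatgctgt
They lie at chr13:119690101-119690350 (plus strand), chr8:64733579-64733828 (minus strand) and chrX:72918271-72918520 (plus strand). Within 300 bases around the start, Hmgcs1 and Nsdhl held 4 CCAAT letters each and Msmo1 held 3, and 3.37% of all windows held at least 3. Pmvk, which also rose, held 1 and 0 in its windows, so the genes shown are not typical of all that rose. A link between these letters and a rise was not tested. Of the 25 listed genes, 17 had a window; 16 of these held CCAAT, 5 at least 3 times, and 1 held TCACNCCAC. Over all windows 37.4% held CCAAT and 1.24% held TCACNCCAC. Of the FXR-induced genes with a window, 8 of 14 held CCAAT, and of the T cell and NK cell genes 8 of 23.

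Fatty acid genes moved in both directions. Among 21 tested genes of fatty acid synthesis, 4 rose and 1 fell (23.8% called), with a median of 0.13. Acss2 (0.95) and Acly (0.64), which make cytosolic acetyl-CoA, Acacb (0.95), a carboxylase that makes malonyl-CoA, and the desaturase Fads1 (0.66) rose in the authors' deposited table. Elovl3, an elongase, fell from 31.7 to 15.5 FPKM in the authors' deposited table. The synthase Fasn had -0.12 (SE 0.596), the desaturase Scd1 -0.35 (SE 0.97) and the regulator Srebf1 -0.66 (SE 0.445) in the authors' deposited table. None of them was called. Their errors are wide, and a change larger than its error could still miss the threshold, as that of Srebf1 did. Of 16 tested lipid droplet genes 0 rose and 3 fell (18.75% called). Cidea was followed by Fabp4 (-0.46), a fatty acid carrier, and Fitm2 (-0.39) in the authors' deposited table. Among 25 genes of fatty acid oxidation and PPAR alpha targets 1 rose and 2 fell (12% called). They were Angptl4 (0.52), and Cyp4a14 (-0.87) and Vnn1 (-0.48), in the authors' deposited table.

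Secreted regulators of triglyceride also moved. Angptl8, an inhibitor of lipoprotein lipase made after feeding, fell from 136 to 52.0 FPKM, by 1.38 (SE 0.224), in the authors' deposited table. The lipase gene Lpl itself fell from 38.4 to 22.7 FPKM in the authors' deposited table. Apoa4, an apolipoprotein of triglyceride-rich particles, rose from 562 to 1135 FPKM, by 1.01 (SE 0.276, q = 0.0224), in the authors' deposited table. Of 18 hepatokines and genes of the IGF axis, 1 rose and 7 fell (44.4% called), with a median of 0.01. Besides Angptl8, the falls were led by Enho (-0.90), the adropin gene, Tsku (-0.85), a secreted proteoglycan, and the activin antagonist Fst (-0.68) in the authors' deposited table.

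Some genes of glucose handling and amino acid breakdown were called. Of 18 tested glucose genes 1 rose and 1 fell (11.1% called, beside 4.04% of all tested genes). A positive change was seen in 16, and the median was 0.16. The called genes were Pck1, the PEP carboxykinase (269 to 421 FPKM, 0.65), and G6pc, the glucose-6-phosphatase that releases glucose (117 to 31.7 FPKM, -1.89), in the authors' deposited table. Pck1 and G6pc thus moved in opposite directions. Of 25 tested genes of the urea cycle and amino acid breakdown, 4 rose and 0 fell (16% called, beside 4.04% of all tested genes). A positive change was seen in 23, and the median was 0.17. Ass1, the argininosuccinate synthase, rose from 327 to 572 FPKM, by 0.81, in the authors' deposited table. Hal (0.79), Sds (0.78) and Gls2 (0.64), which break down histidine, serine and glutamine, rose in the authors' deposited table. None of 15 pericentral hepatocyte genes was called by the authors' Cuffdiff test, and 3 had an unadjusted p under 0.05.

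Targets of growth hormone and STAT5, many of which differ between the sexes in mouse liver, were called in both directions. Cish, a STAT5-induced inhibitor of cytokine signalling (chr9:107292435-107302784), rose from 2.89 to 14.6 FPKM, by 2.34 (SE 0.387), in the authors' deposited table. Its relative Socs2 rose from 3.33 to 5.29 FPKM in the authors' deposited table. Bcl6, a repressor of STAT5 targets, fell from 13.8 to 5.84 FPKM, by 1.24 (SE 0.145), in the authors' deposited table. Onecut1, the transcription factor HNF6 (chr9:74847983-74891781), rose from 2.90 to 14.1 FPKM, by 2.29 (SE 0.166), in the authors' deposited table. Among 18 tested growth hormone and STAT5 targets, 3 rose, 3 fell and 12 were not called, with a median of 0.00; Cish and Socs2 were among the rises, and the male-biased Elovl3, Cyp7b1 and Cyp2d9 were the falls. Over 27 nuclear receptors and liver transcription factors, 3 rose (Onecut1, Nr0b2 and Nr1i2) and 1 fell (Bcl6).

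The start of Cish is shown because STAT5 is known to bind pairs of the letters TTCNNNGAA there. The sequence is RefSeq's (GRCm38.p6, plus strand), chr9:107296659-107296678, from base 1 after the start, with the sites in capitals.
Cish: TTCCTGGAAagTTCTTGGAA
The letters read the same on both strands. They occurred in 8.3% of all windows, and at least 2 times in 0.457%.

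Some of the major urinary proteins, pheromone carriers secreted by male liver, fell. Of 21 listed Mup genes 18 were tested; 9 fell, 0 rose and the other 9 missed the threshold, with a median of -1.16. Mup11 went from 124 to 5.62 FPKM, Mup17 from 165 to 18 and Mup14 from 59.1 to 7.56 in the authors' deposited table. The most abundant members were not called: Mup3 stood at 3621 and 2834 FPKM and Mup20 at 1914 and 2151 in the authors' deposited table. The Mup and Serpina1 genes are near-identical copies, and reads could be split among them, so single members are uncertain. Among 5 tested Serpina1 paralogs only Serpina1e was called; Serpina1a (-0.13), Serpina1b (0.05), Serpina1c (-0.33) and Serpina1d (0.10) were not, in the authors' deposited table. The Mup and Serpina1 sets were chosen after their values were seen.

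Detoxifying enzymes moved in both directions, also within families. Of 29 tested genes of xenobiotic metabolism, 3 rose and 5 fell (27.6% called). Cyp2c29 fell from 780 to 378 FPKM, and Cyp2c37, Cyp2c50 and Cyp2c54 also fell while Cyp2c38 rose by 0.53, in the authors' deposited table; these copies are alike in sequence. Among 33 tested NRF2 targets and glutathione genes, 5 rose and 2 fell (21.2% called), with a median of 0.00. The glutathione transferases Gsta4 (97.6 to 220 FPKM), Gsta2 (18.6 to 36.2) and Gstm3 (110 to 196) rose in the authors' deposited table. The falls were Hmox1, the heme oxygenase, from 24.0 to 17.0, and the glutathione transferase Gstp1 (-0.48), in the authors' deposited table. Of 23 conjugating enzymes 2 rose and 1 fell, namely Sult1a1 (0.69) and Papss2 (0.52), and Ugt2b1 (-0.78), in the authors' deposited table.

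Some stress genes of the endoplasmic reticulum (ER) fell. Of 22 tested genes of ER and integrated stress, 7 fell, 1 rose and 14 were not called (36.4% called, beside 4.04% of all tested genes). Their median was -0.24. Hyou1, an ER chaperone, fell from 47.6 to 21.3 FPKM, Creld2 from 32.6 to 15.3 and the central chaperone Hspa5 from 351 to 209 in the authors' deposited table. Atf3, a stress-induced transcription factor, rose by 0.50 in the authors' deposited table. Of 21 tested immediate early and heat shock genes, 2 rose (Fosb 1.24 and Gadd45g 0.85) and 5 fell, among them Hspa1b (-0.95), Dusp1 (-0.85) and Hsph1 (-0.83), in the authors' deposited table. Fosb is low: with 1 added to each FPKM its change was 0.19. With a minimum of 1 FPKM in a group the list had 6 calls in place of 7. Clock genes gave 2 rises, Per1 (0.56) and Per3 (0.50), and 1 fall, Arntl (-0.68), of 17 tested in the authors' deposited table.

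**Figure D3:**
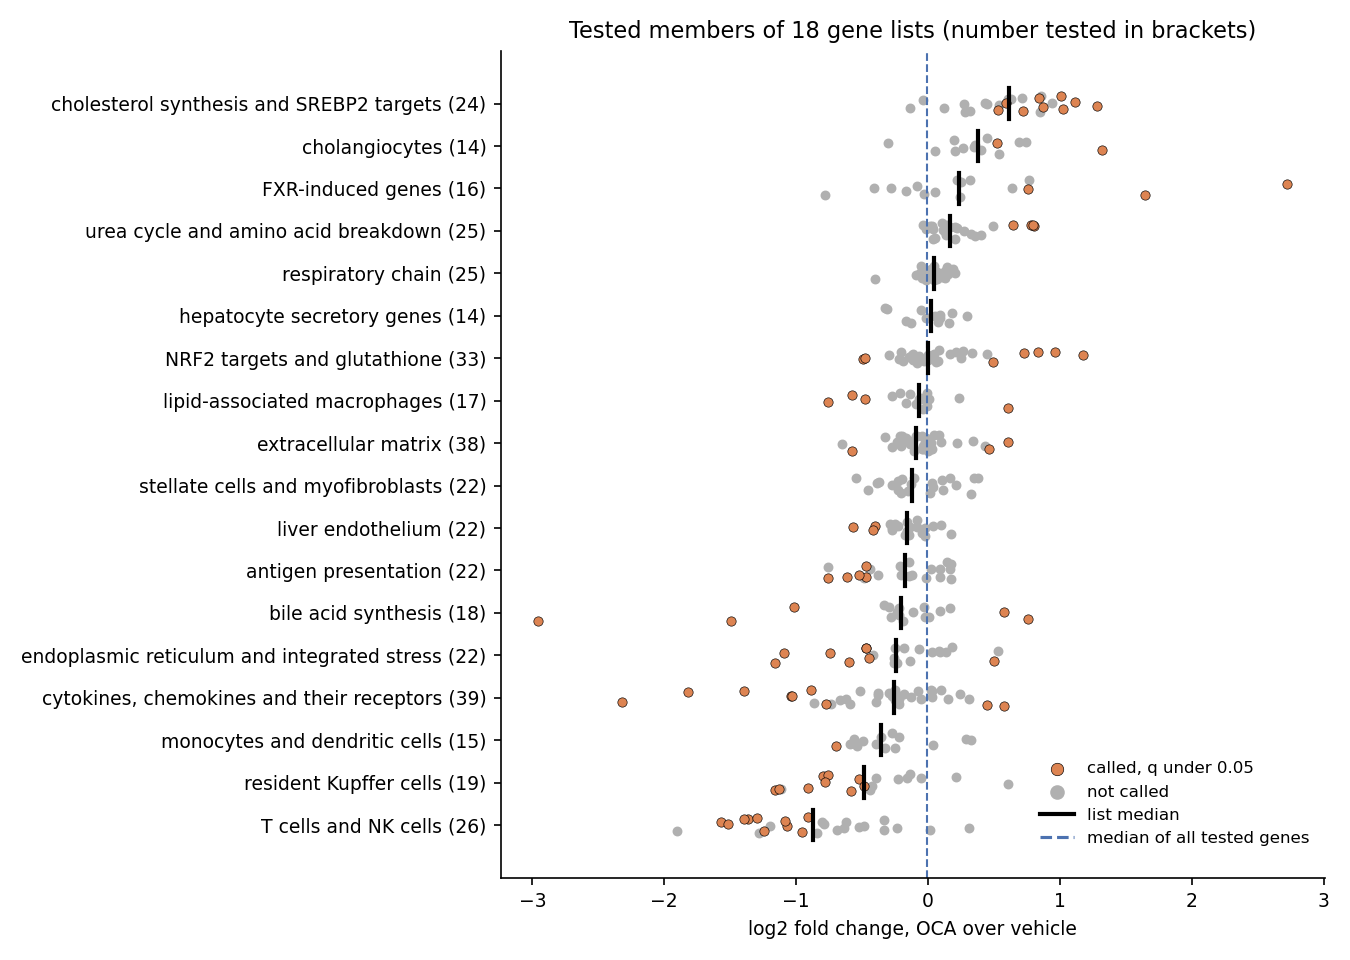
Log2 fold change of OCA over vehicle for each tested member of 18 gene lists, ordered by median; orange points are called at q under 0.05, black bars are list medians and the dashed line is the median of all tested genes (-0.01). Cholesterol synthesis has the highest median (0.62) and T and NK cells the lowest (-0.88).

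Some genes of resident Kupffer cells, the macrophages of the liver sinusoid, fell. Of 19 tested markers 9 fell, 0 rose and 10 were not called (47.4% called, beside 4.04% of all tested genes). Their median was -0.49, and their FPKM summed to 593 with vehicle and 432 with OCA in the authors' deposited table. Timd4, a phosphatidylserine receptor of embryo-derived Kupffer cells, fell from 2.02 to 0.901 FPKM, by 1.16 (SE 0.227), in the authors' deposited table. Vsig4, a complement receptor, fell from 43.0 to 22.9 FPKM, and Cd5l, an inhibitor of macrophage cell death, from 112 to 64.5, in the authors' deposited table. The macrophage receptors Adgre1 (-0.78), Folr2 (-0.76) and Csf1r (-0.52) fell as well in the authors' deposited table. Clec4f, a lectin found on Kupffer cells, had -0.44 (q = 0.317) in the authors' deposited table. In whole-liver RNA, fewer cells of a type and less RNA per cell cannot be told apart.

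T cell and NK cell genes, which encode the receptors and killing proteins of lymphocytes, had the lowest median of the lists in the plot of gene lists, at -0.88. Of 33 listed, 26 were tested, 10 fell and 0 rose (38.5% called, beside 4.04% of all tested genes). Outside the list, the T cell receptor kinase gene Zap70 was called higher, from 4.00 to 5.99 FPKM (0.58), in the authors' deposited table. Ccl5, a chemokine of activated T cells and NK cells, fell from 37.1 to 14.1 FPKM, by 1.39 (SE 0.161), in the authors' deposited table. The cytotoxic genes Gzmb (1.18 to 0.398 FPKM), Nkg7 (4.74 to 1.84) and Prf1 (0.333 to 0.116) fell in the authors' deposited table. So did receptor genes of T cells, with Trac going from 2.57 to 1.04 FPKM, Cd8a from 0.788 to 0.333 and Cd3e from 0.866 to 0.409, in the authors' deposited table. All but Ccl5 are low, and 21 of the listed genes were under 1 FPKM with vehicle. Without Ccl5 the listed genes summed to 32 FPKM with vehicle and 18.2 with OCA in the authors' deposited table. With a minimum of 1 FPKM in a group, 5 of the 10 calls remained in the tested set, and with a pseudocount of 1 added to each FPKM the median was -0.32. Of 12 tested B cell and neutrophil genes none was called by the authors' Cuffdiff test, and 2 had an unadjusted p under 0.05.

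Genes of signals between immune cells fell more often than they rose. Of 39 tested cytokines, chemokines and receptors, 7 fell and 2 rose (23.1% called), with a median of -0.25. The falls were Cxcl13 and Ccl5, above, with Ccl8 (3.58 to 1.01 FPKM), Ccl4 (3.63 to 1.77), Cxcl9 (20.3 to 9.92), Ccl3 and Ccl6 in the authors' deposited table. Ccl2, which draws monocytes, was at 8.29 and 8.48 FPKM, with 0.03 (q = 0.999), in the authors' deposited table. The rises were the interleukin receptor Il1r1 (0.58) and Il18 (0.44) in the authors' deposited table. Of 22 antigen presentation genes 5 fell and 0 rose (22.7% called), all 5 of the MHC class II pathway. Cd74, the invariant chain, fell from 357 to 248 FPKM in the authors' deposited table. Of 37 interferon-stimulated genes 2 rose (Ifit1 0.62 and Usp18 0.55) and 4 fell, among them Gbp2 (-0.73), in the authors' deposited table. Of 34 complement and coagulation genes 6 fell, including the macrophage-made C1qa (-0.46), C1qb (-0.51) and C1qc (-0.55), in the authors' deposited table. Of 24 acute phase genes 3 fell, led by Saa3 (43.3 to 20.6 FPKM), in the authors' deposited table. The part of Kupffer cell and lymphocyte marker levels in these falls was not tested.

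The macrophages that gather around lipid in NASH gave a different count. Of 17 tested markers of lipid-associated macrophages 1 rose and 3 fell (23.5% called), with a median of -0.07. Trem2, their lipid receptor, was at 10.1 FPKM in both groups, and Gpnmb, a lysosomal glycoprotein, at 15.7 and 13, in the authors' deposited table. Spp1, osteopontin, rose from 130 to 198 FPKM, by 0.61 (SE 0.154), in the authors' deposited table. The macrophage elastase Mmp12 fell from 26.3 to 17.6 FPKM in the authors' deposited table.

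Of 38 tested extracellular matrix genes, which build scar tissue, 2 rose and 1 fell (7.89%, beside 4.04% of all tested genes), with a median of -0.09 against -0.01 over all tested genes. Col1a1 and Col3a1, the main chains of fibrillar collagen, had 0.02 (SE 0.211) and -0.03 (SE 0.271) in the authors' deposited table. The rises were Spp1 and the proteoglycan Lum (14.9 to 20.5 FPKM), and the fall was Mmp12, in the authors' deposited table. None of 22 stellate cell and myofibroblast genes was called by the authors' Cuffdiff test, and 4 had an unadjusted p under 0.05; Acta2, smooth muscle actin, had -0.20 (q = 0.84) in the authors' deposited table. Of 22 endothelial genes 3 fell, Stab2 (-0.57), Oit3 (-0.41) and Cdh5 (-0.40), in the authors' deposited table. Of 14 tested cholangiocyte genes 2 rose, Tff2 (1.32) and Epcam (0.52), with a median of 0.38, and Krt19 had 0.54 (q = 0.283), in the authors' deposited table. With a pseudocount of 1 the rise of Tff2 was 0.63 and that of Epcam 0.38. Cell cycle genes gave 3 rises and 1 fall among 26 tested (15.4% called). They were Ccnb2 (0.82), Ccnd1 (0.79) and Mki67 (0.52), and the inhibitor Cdkn1a (-0.70), in the authors' deposited table. With a pseudocount of 1 the 3 rises were 0.47, 0.76 and 0.24. None of 25 respiratory chain genes was called, and none had an unadjusted p under 0.05.

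Cfd is made in quantity by fat cells, so the fat markers stand beside it. Adipoq was at 0.167 FPKM with vehicle and 0.079 with OCA, Lep at 0.041 and 0.004, and Plin1 at 0.068 and 0.053, none of them tested, in the authors' deposited table. Among 11 tested genes of blood, pancreas and fat 2 fell, Cfd and Car3, a carbonic anhydrase that hepatocytes also express (1793 to 845 FPKM), in the authors' deposited table. The listed genes summed to 55.5% of the vehicle level, and to 86.5% without Car3, in the authors' deposited table.

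The place of each group relative to lean liver is given from 3 tables that share groups, so the values stand side by side and no overlap is drawn from them. Of 25 tested cholesterol synthesis genes, 22 were lower in vehicle than in lean liver, where 6.56% of all tested genes were lower, and 17 were lower in OCA than in lean liver, where 6.5% were. The medians were -1.39 and -0.87. Sqle was 4.33 below lean with vehicle and 3.04 below with OCA on the log2 scale in the authors' deposited tables.

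Of 26 tested T cell and NK cell genes 16 were higher in vehicle than in lean liver (11.4% of all tested genes were higher), with a median of 1.26, and of 21 tested 5 were higher in OCA than in lean liver (10.3%), with a median of 0.71. Gzmb was at 1.53 over lean with vehicle and at -0.03 (q = 0.981) with OCA in the authors' deposited tables. Kupffer cell genes were mixed: 9 of 19 were higher and 3 lower in vehicle than in lean liver, and 4 were higher and 5 lower in OCA. Timd4 was already at -0.63 with vehicle and reached -1.79 with OCA in the authors' deposited tables. Cyp8b1 likewise stood at -1.62 and -4.57, and Slc51b at 1.03 and 3.75, in the authors' deposited tables. Matrix genes kept a similar count: of 38 tested, 32 were higher in vehicle and 29 in OCA than in lean liver, each with a median of 1.28. Cfd stood at 5.12 with vehicle and 0.95 with OCA over lean, and Onecut1 at -1.57 and 0.72, in the authors' deposited tables.

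**Figure D4:**
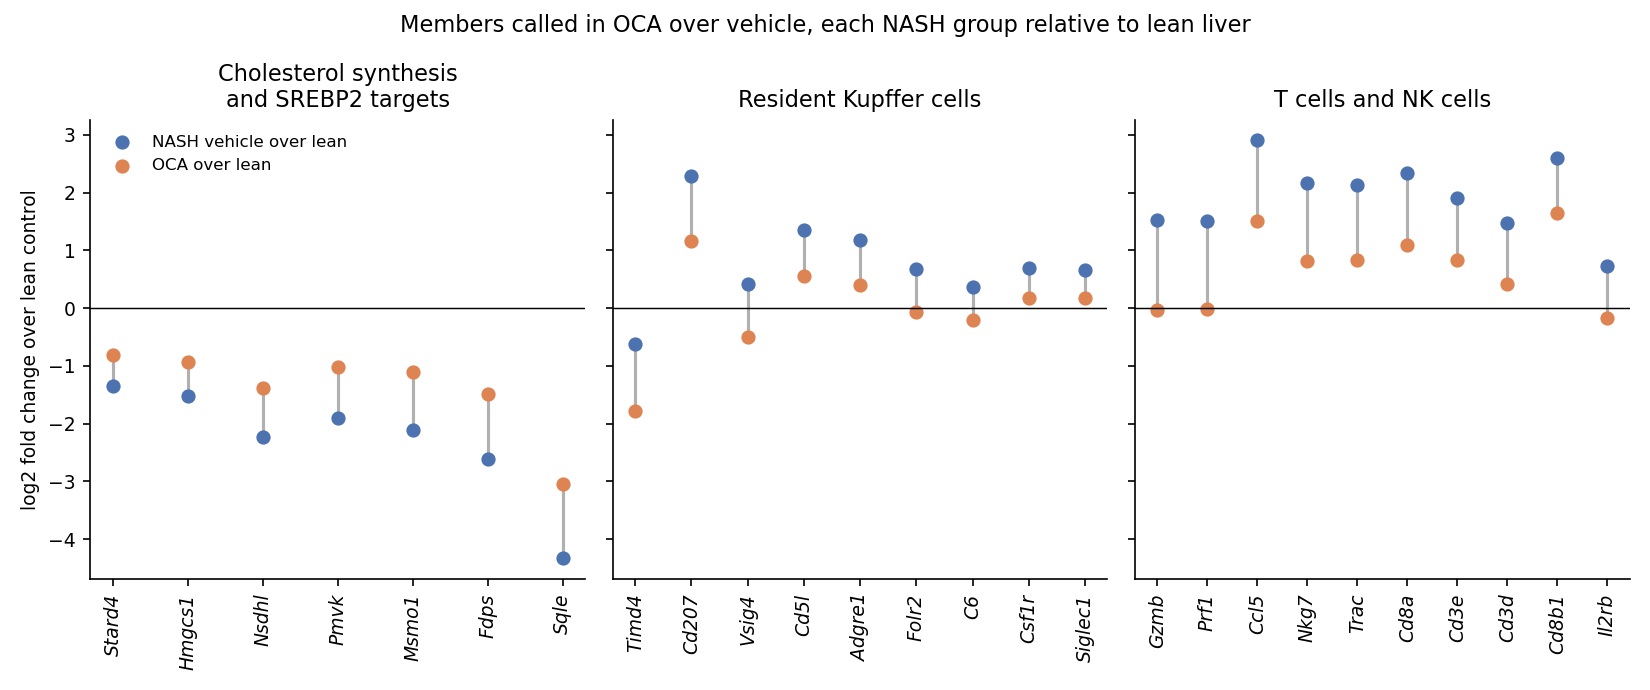
Log2 fold change over lean control of the vehicle group (blue) and the OCA group (orange) for listed members called in OCA over vehicle (cholesterol genes shown in part); the comparisons share the lean group, lines join the values of a gene, and no error is drawn. Sqle lies at -4.33 and -3.04, Timd4 at -0.63 and -1.79 and Gzmb at 1.53 and -0.03.

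The OCA effect was set beside that of tropifexor, an FXR agonist without a bile acid structure, in the group named high, against its own vehicle. The compounds share no animals, their doses cannot be matched, and the labels list 0.1, 0.3 and 0.9 mg/kg without pairing them with the groups. Of 15243 genes tested in both, 622 were called with OCA and 3903 with tropifexor, where the table of the latter called 25.4% of its tested genes (9.93% higher and 15.5% lower); both called 484, which is 77.8% of the OCA calls and 12.4% of the tropifexor calls. Of the 484, 441 had the same direction and 43 the opposite. The difference between the effects was called (normal test, adjusted by the Benjamini-Hochberg method) for 1741 of 15206 genes, or 11.4% (7.15% with the higher value under OCA and 4.3% with the lower). Among the 441, the difference was called for 206, with the OCA effect the smaller in 205 and the larger in 1. These counts depend on the standard error: without the factor of 2.04 between the deposited statistic and its p, which gives a wider error, the difference was called for 257 genes, and for 75 of the 441, all 75 smaller with OCA. Against the low-dose group it was called for 802 genes.

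Of 16 FXR-induced genes in the difference test 10 were lower with OCA and 1 higher, or 4 and 0 with the wider error. Slc51b had 2.72 with OCA and 6.08 with tropifexor in the authors' deposited tables, a difference of -3.36 (95% interval -4.02 to -2.70). Cyp8b1 had -2.95 and -8.55 in the authors' deposited tables, a difference of 5.59 (5.04 to 6.15). Of 24 cholesterol synthesis genes 14 were lower with OCA and 0 higher, or 3 and 0 with the wider error. Of 37 matrix genes 28 had a higher value with OCA and 1 a lower one, or 12 and 0 with the wider error. Col1a1 had 0.02 with OCA and -2.70 with tropifexor in the authors' deposited tables, a difference of 2.73 (2.2 to 3.25).

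Of 24 T cell and NK cell genes, 0 had a called difference in the normal test and 2 had an unadjusted p under 0.05; for Cd8a the difference was -0.04 (-0.75 to 0.68) and for Gzmb -0.86 (-1.67 to -0.05). Cyp7b1 differed by -0.01 (-0.41 to 0.38), Hyou1 by -0.42 (-1.01 to 0.16) and Serpina1e by 0.81 (0.18 to 1.44), none called. Of 19 Kupffer cell genes the difference was called for 6, with the lower value under OCA for 4 and the higher for 2. Timd4 had -1.16 with OCA and 0.25 with tropifexor, Vsig4 -0.91 and 0.06, and Folr2 -0.76 and -0.11, in the authors' deposited tables. Their differences were -1.41 (-2.00 to -0.81), -0.97 (-1.36 to -0.57) and -0.65 (-1.04 to -0.26), all called, but no Kupffer cell gene had a called difference with the wider error. Cish had 2.34 with OCA and 0.18 with tropifexor in the authors' deposited tables, a difference of 2.16 (1.11 to 3.21) that was called, but not with the wider error.

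Opposite directions included lipid, matrix and transcription factor genes. Onecut1 rose by 2.29 with OCA and fell by 1.93 with tropifexor in the authors' deposited tables, a difference of 4.22 (3.72 to 4.72). The vehicle groups themselves differed here, at 2.90 FPKM for OCA and 15.1 for tropifexor, while the treated groups were at 14.1 and 3.97, in the authors' deposited tables. The vehicle levels of Cish were 2.89 FPKM beside OCA and 16.0 beside tropifexor by the authors' deposited tables. Apoa4 had 1.01 and -2.90, from vehicle levels of 562 and 1168 FPKM, in the authors' deposited tables. Angptl8 had -1.38 and 1.03, from 136 and 36.0 FPKM, and Cxcl13 -2.32 and 1.70, from 1.18 and 0.375 FPKM, in the authors' deposited tables. Tsku had -0.85 and 1.76 from nearer vehicle levels of 76.0 and 59.4 FPKM, and Spp1 0.61 and -0.67 from 130 and 172, in the authors' deposited tables. With the wider error the difference of Spp1 was not called, and 21 of the 43 genes of opposite direction had a called difference. The tables were scaled separately, with a constant of up to 0.194 on the log2 scale between tables that share a group. The OCA and high-dose tropifexor tables share no group, so the constant between them is unknown. The part of the vehicle levels in these opposite directions was not tested.

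**Figure D5:**
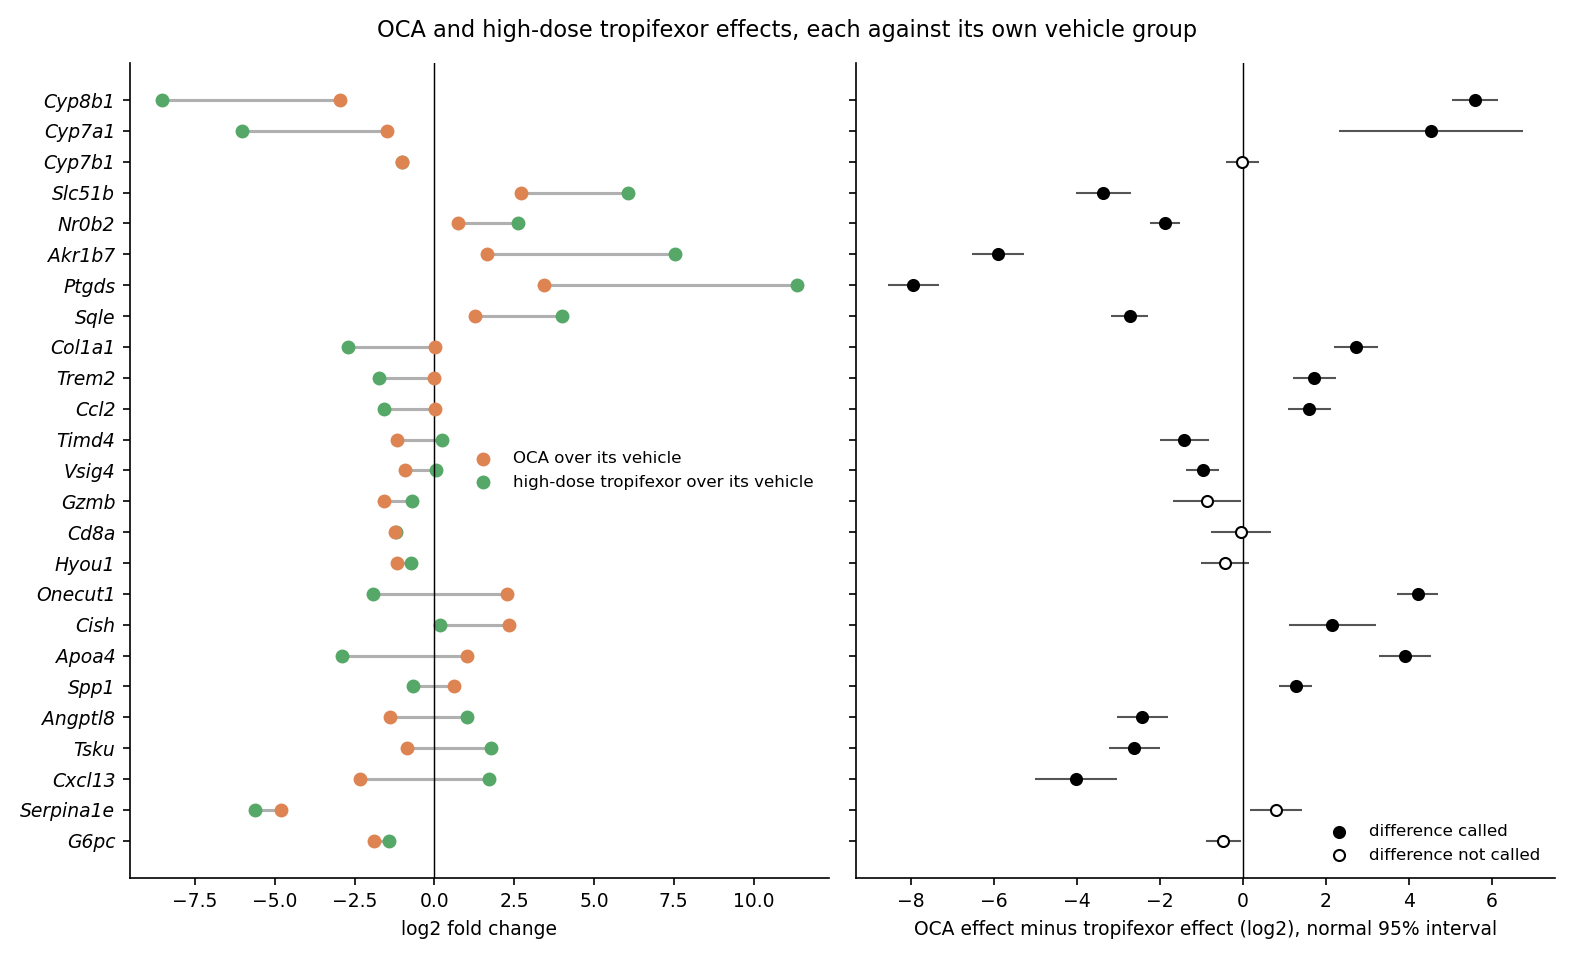
Left, log2 fold change of OCA (orange) and high-dose tropifexor (green) over their own vehicle groups for named genes (orange covers green for Cyp7b1 and Cd8a). Right, the difference of the effects with its normal 95% interval, filled where called; Ptgds (-7.94) and Akr1b7 (-5.90) have the largest differences drawn, and Onecut1 and Cxcl13 have opposite signs.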

How the data were processed

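Liver RNA of 28 mice in 7 groups of 4 was sequenced; stranded poly(A) libraries were made with TruSeq reagents from Trizol RNA, per the labels' protocols. STAR 2.5.1b, Cufflinks 2.2.1, Cuffnorm, Cuffdiff and bcl2fastq with the mouse build GRCm38 are named in the submitters' processing notes, without role or order. The FPKM values are the authors' deposited group values, per the file headers, and each group has 1 value. The log2 fold changes and the test statistics (a score) are the authors' deposited values, per the file headers. The p-values and q-values are the authors' deposited Cuffdiff output. Of 47719 genes listed, 15706 had status OK; a gene was called at q under 0.05, which matched the authors' flag for every gene of the 6 tables used.

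The standard error is the absolute log2 fold change divided by 2.04 times the absolute statistic, where 2.04 is the median ratio of the normal z of the deposited p to the statistic (p between 0.0002 and 0.9). Effects were compared as normal differences with variances added and Benjamini-Hochberg adjustment; no exact test is possible without values per animal. The calculation was tested on simulated data drawn from these same standard errors, so the factor of 2.04 itself was not tested. The labels give separate samples of a group, so p-values measure the spread between these samples. The same group's FPKM in different tables had a median deviation of 0.000449 or less on the log2 scale beyond a constant, while different groups had 0.0779 or more.

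Gene lists (41, with 872 genes) and named genes were chosen with earlier results of these data known. Named genes are the 12 largest rises and 12 largest falls with at least 1 FPKM, up to 6 called members per list and direction, a set of anchor genes, the 15 most abundant called genes in no list and the 8 largest differences from tropifexor in each direction. That rule left gene models (names of Gm plus digits or ending in Rik) out of the ranks, and 41 gene models were called in OCA over vehicle. Members of the marker, Mup and Serpina1 sets fall outside the rule and were chosen after their values were seen. The same holds for a few other genes (Hmgcs1, Stard4, Srebf2, Ebp, Csf1r, Ccl6, Gpnmb and Zap70). A few genes that the rule names are not reported here, though counts over lists include them. Alternatives were a stricter q, a minimum of 1 FPKM, a fold minimum, a pseudocount of 1, a normal test, centring on the median, the error without the factor of 2.04 (unscaled) and the other tropifexor doses. Scripts used Python 3.11.15, numpy 2.4.6, pandas 2.3.3 and scipy 1.17.1.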

Additional observations from a re-analysis of the deposited data

Results flagged for a closer look

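In the genes below the OCA effect differed from the high-dose tropifexor effect, each against its own vehicle group, by the normal test with Benjamini-Hochberg adjustment; the values are OCA minus tropifexor on the log2 scale. They come from the 8 largest differences in each direction, gene models left out, and from the anchor genes whose difference was called. Where the difference is positive, the gene fell less, or rose more, with OCA.

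Among enzymes and transporters of bile acids, drugs and fat, the difference was 8.18 for Cyp2b9, 5.66 for Slco1a1, 5.59 for Cyp8b1, 4.54 for Cyp7a1, 3.29 for Slc10a1 and 2.85 for Scd1. It was 6.51 for Cidea, 5.35 for Nnmt, a nicotinamide methyltransferase, 5.28 for Paqr9, 5.19 for the pseudogene Serpina4-ps1, 5.17 for the glutamate transporter Slc1a2 and 1.55 for the receptor gene Nr1h4. Some of these rest on levels near 0 in the high-dose tropifexor group, so their sizes are uncertain. Cidea was there at 0.062 FPKM (95% interval of its difference 4.83 to 8.18), Serpina4-ps1 at 0.161 and Cyp8b1 at 0.242, in the authors' deposited table. Genes of scar tissue and inflammation gave 2.73 for Col1a1, 2.59 for Col3a1, 1.25 for Acta2, 1.72 for Trem2 and 1.61 for Ccl2, and the proliferation gene Mki67 gave 1.34.

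The FXR-induced genes gave -5.90 for Akr1b7, -3.36 for Slc51b, -1.87 for Nr0b2, -1.38 for Abcb11 and -1.18 for Abcb4. The sterol gene Sqle gave -2.72. The other negative differences were -7.94 for Ptgds, -5.89 for Lpcat4, -4.425 for Clic3, -4.26 for Tmem141, -4.02 for Cxcl13, -3.80 for the membrane repair gene Dysf and -1.41 for Timd4.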

How the results depend on the processing

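The genes changed by OCA numbered 368 (169 higher, 199 lower) with a q under 0.01 and 157 (75 higher, 82 lower) with a log2 fold change of at least 1 in addition to the q under 0.05. A minimum of 1 FPKM (583), a normal test on the implied error (735) and the same test centred on the median (716) stayed within 1.5 times the 634. These alternatives leave a fold change as it is or shift it by the median of -0.01, so no called change could turn its sign. Differences could turn with the tropifexor dose. That of Obp2a was -1.88 against the high dose (called) and 0.10 against the low dose (not called). That of Mup14 was 2.41 against the high dose (called) and -0.43 against the mid dose (not called). Values near 0 turned sign with centring: the log2 fold change of Trem2 went from -0.01 to 0.01 and that of Lpcat4 from -0.01 to 0.00, neither called. With a minimum of 1 FPKM the medians of 4 lists turned sign (bile acid uptake and export, glucuronosyl- and sulfotransferases, immediate early and heat shock genes, and iron, heme and BMP targets). The difference from high-dose tropifexor was called for 257 genes with the unscaled error and 802 with the low dose, against 1741. Of 48 named differences some, such as those of Cyp7b1 and Cd8a, had no call to lose. With the unscaled error 13 lost the call, among them Slc1a2, Clic3, Abcb11, Abcb4, Cyp7a1, Scd1, Timd4, Trem2, Ccl2, Acta2 and Mki67. In the centred normal test Auts2, Fitm2, Fmo2, Gbp4 and Il1r1 lost the call in OCA over vehicle. No paired analysis was possible because the tables hold 1 value per group; for the same reason no animal could be left out, and depth limits cannot be given.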

Other observations

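Among the 15 most abundant called genes in no list, secreted and metabolic genes moved both ways. Fgl1, a hepatokine and immune ligand, fell from 242 to 125 FPKM, and Gpd1, which makes glycerol phosphate for triglyceride, from 157 to 88.1, in the authors' deposited table. Rarres2, the chemerin gene, rose from 821 to 1262 FPKM, and Aqp8, a water channel of the bile canaliculus, from 104 to 187, in the authors' deposited table. Hsd17b6, a steroid dehydrogenase, rose from 112 to 213 FPKM, and Sqrdl, a mitochondrial sulfide oxidase, from 140 to 217, in the authors' deposited table. The carboxylesterases split, with Ces3a (-0.70) and Ces1f (-0.63) lower and Ces3b (0.79) higher in the authors' deposited table; these copies are alike in sequence. Rarres2, Ces3a and Gpd1 share exon bases with another gene.

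Further genes called in opposite directions with OCA and high-dose tropifexor were chosen after their values were seen. Cyp17a1, a steroid hydroxylase, had 1.24 and -2.06, from vehicle levels of 5.17 and 6.54 FPKM, in the authors' deposited tables. Sprr1a, a proline-rich protein induced by stress, had 0.89 and -2.59, from 8.70 and 13.3 FPKM, in the authors' deposited tables. Ppp1r3b, which targets a phosphatase to glycogen, had -0.61 and 0.76, from 49.9 and 24.8 FPKM, in the authors' deposited tables.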
